A study of Mus musculus with 8 samples.

Results

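The genes described here carry dietary fat through the absorptive cells of the small intestine and out of them as chylomicrons, the lipoprotein particles of the gut. They are 10 genes, Apoa1, Apoc3, Apoa4, Apob, Mttp, Fabp1, Fabp2, Cd36, Dgat1 and Mogat2, taken by symbol as every probe whose gene name on the array was one of them. This gave 12 probes of the 39429 on the array and 10 genes of the 21821 that passed the filter on dim probes, and all 12 probes were well above background on all 8 arrays. Fatty acids and monoacylglycerol released by digestion enter the enterocyte at its brush border, are held in the cytosol by fatty acid binding proteins and are rebuilt into triglyceride at the endoplasmic reticulum. Microsomal triglyceride transfer protein loads this triglyceride onto apolipoprotein B, further apolipoproteins coat the particle, and it leaves the cell towards the lymph. Most of these genes are abundant in the jejunal villus, and several are also expressed in liver, while Cd36 is also expressed in adipocytes, macrophages and endothelium.

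The arrays measured the small intestine, named as jejunum in the design text, of BALB/cA Jcl mice, female and 8 weeks old, sampled 4 h after the exposure to carbon ions or its 0 Gy control. An intraperitoneal pretreatment of 12 h preceded it. Each of 4 groups had 2 arrays. Mice given saline received 0 Gy or 8 Gy, and mice given FGF1 or the protein FGF1/CPP-C received 8 Gy. FGF1 is fibroblast growth factor 1, and FGF1/CPP-C is a chimera protein built on it. No group received FGF1 or FGF1/CPP-C without irradiation, so that neither protein can be told apart from its combination with 8 Gy. Whether both arrays of a group represent different mice is not stated in the labels, so the p-values speak only of spread among these arrays, possibly technical. Array 1 of every group lay on slide 1 and array 2 on slide 2.

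Probes of 3 apolipoproteins are shown, those of Apoa1 and Apoa4 because both FGF1/CPP-C arrays were their highest, and those of Apob because its 2 probes differed. They are 60 bases long, written 5′ to 3′ as in the array files, with no bases singled out.
Apoa1: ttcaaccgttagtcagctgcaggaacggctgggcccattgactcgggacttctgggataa
Apoa4: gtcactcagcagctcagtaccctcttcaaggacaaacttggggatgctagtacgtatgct
Apob, brighter probe: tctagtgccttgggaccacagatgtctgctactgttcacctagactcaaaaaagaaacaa
Apob, dimmer probe: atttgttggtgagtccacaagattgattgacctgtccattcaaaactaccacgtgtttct
In the mouse build mm9, which the array files use, the Apoa1 probe lies on the plus strand at chr9:46037921-46037980, and the Apob probes at chr12:8012697-8012756 for the brighter and chr12:8023194-8023253 for the dimmer, both on the plus strand. The brighter of the 2 Apoc3 probes lies on the minus strand at chr9:46041134-46041193, and the dimmer, designed to another transcript accession of the gene, at chr9:46043606-46043665. Apoa1, Apoc3 and Apoa4 stand side by side, in this order, in the RefSeq gene table of chromosome 9, followed by Apoa5. The other probes lie on chromosome 3 (Mttp at 137753868 to 137753927 on the minus strand, Fabp2 at 122602276 to 122602335 on the plus strand), chromosome 6 (Fabp1, 71154906 to 71154965, plus), chromosome 5 (Cd36, 17288600 to 17288659, minus) and chromosome 7 (Mogat2, 106367601 to 106367660, minus). The array files give no position for the Apoa4 and Dgat1 probes, and no annotation of mm9 was used, so whether a probe lies in a coding or an untranslated part of its exon is not given.

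All levels below are the log2 of the processed signal over the array's 75th percentile, called the normalised level. The percentile itself lay between 1712 and 2132 intensity units, and the share of probes well above background between 67.0% and 71.3%. Within a group, r between the 2 arrays across genes was 0.982 to 0.994. Markers of other tissues differed between arrays. The summed signal of 11 measured stomach antrum markers had a log2 level of 0.70 and 0.79 in the FGF1/CPP-C arrays and of 8.80 to 10.25 in the other 6. Of these markers, Tff2 and Gkn3 were high in all arrays but those with FGF1/CPP-C. Gkn2 was high only in 0 Gy saline array 1, 8 Gy saline array 2 and FGF1 array 1 (6.49 to 7.57), and at -5.07 or lower elsewhere. The summed signal of 13 measured pancreatic acinar markers was 9.51 in saline 0 Gy array 1, 7.55 in saline 8 Gy array 2 and 3.23 to 3.94 in the other 6.

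No fat absorption gene passed limma's test at an adjusted p under 0.05 in any of the 6 comparisons between groups or in the F test over the 4 groups. The share of all genes that passed was 0.493% for 8 Gy saline against 0 Gy saline, 0% for FGF1 against 8 Gy saline, 0.00934% for the chimera against 8 Gy saline, 0.00933% for FGF1/CPP-C against FGF1, 0.871% for FGF1 against 0 Gy saline, 1.78% for the chimera against 0 Gy saline and 0.418% for the F test. The group mean was highest with FGF1/CPP-C for 9 of the 10 genes, the exception being Fabp2, whose probe was saturated on 3 arrays. For 6 of the 10 (Apoa1, Apoc3, Apoa4, Mttp, Cd36 and Dgat1) both FGF1/CPP-C arrays lay above each of the other 6 arrays, which was so for 9.88% of all genes. In the F test 1 of the 10, Apoa1, had an unadjusted p under 0.05, as did 15% of all genes.

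**Figure D1:**
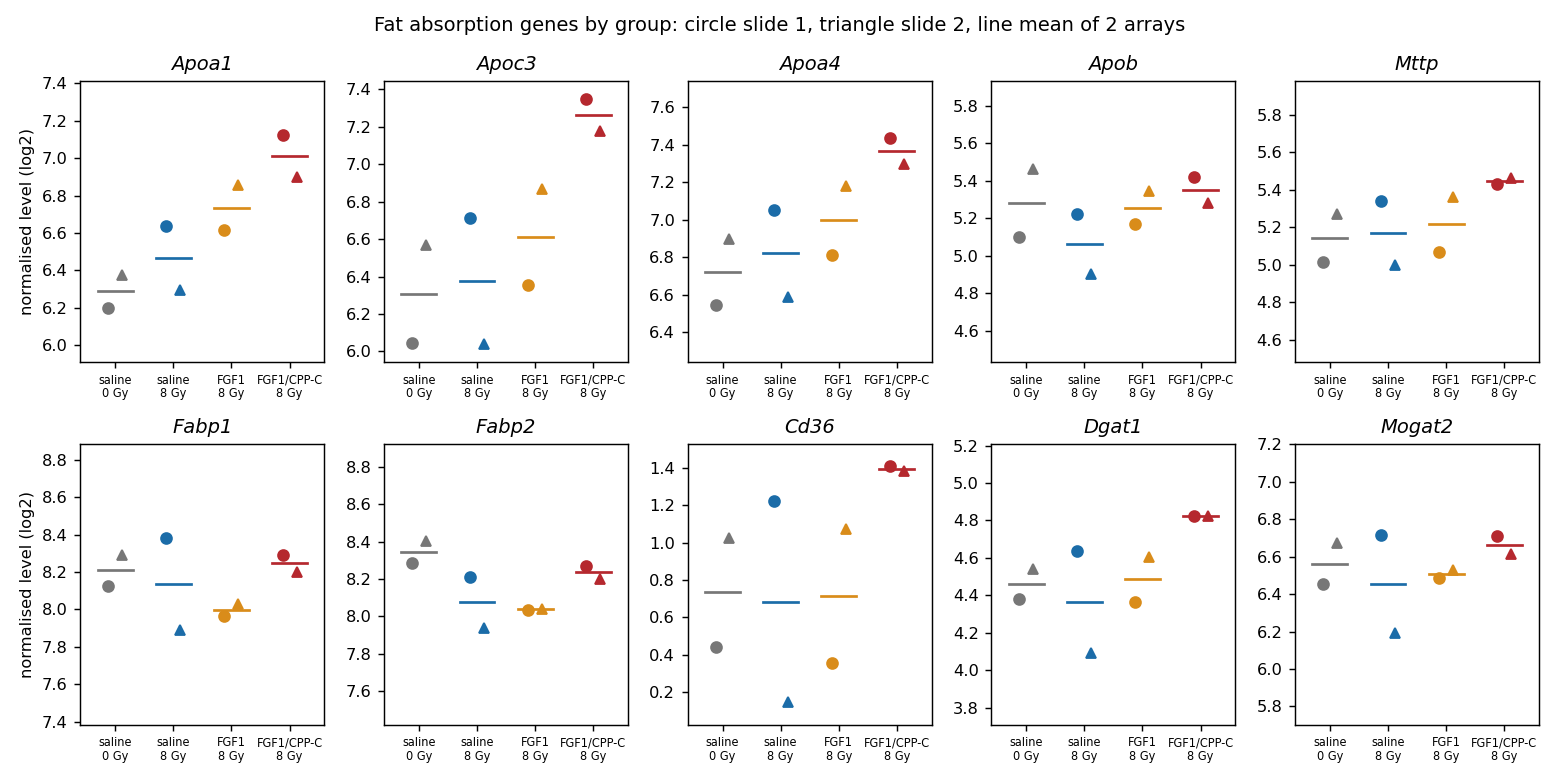
Normalised level (log2) of each of the 10 genes, brightest probe, in the 4 groups; circles are arrays of slide 1, triangles arrays of slide 2, lines the mean of 2 arrays, and every panel spans the same range. For Apoa1, Apoc3, Apoa4, Mttp, Cd36 and Dgat1 both FGF1/CPP-C arrays lie above each of the other 6, and saline 8 Gy array 2 is the lowest array of 8 for Apoc3 (level with 0 Gy saline array 1 at 6.04), Apob, Mttp, Fabp1, Fabp2, Cd36, Dgat1 and Mogat2.

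Apoa1 encodes apolipoprotein A-I, the main protein of high density lipoprotein and a coat protein of new chylomicrons. Its normalised level was 6.20 and 6.38 in the 0 Gy saline arrays, 6.64 and 6.29 with 8 Gy saline, 6.61 and 6.86 with FGF1, and 7.12 and 6.90 with FGF1/CPP-C, slide 1 first in each pair. Both FGF1/CPP-C arrays stood above the other 6 arrays, while 0 Gy and 8 Gy saline overlapped, as did 8 Gy saline and FGF1. The probe was printed on 10 spots of each array, whose signals had a coefficient of variation of 2.98% to 4.84%, so that the spread between arrays is larger than that between spots. Against 8 Gy saline, Apoa1 was 1.46-fold higher with FGF1/CPP-C (log2 difference 0.54 ± 0.17 SE, limma adjusted p = 0.387). With the slide as a block no gene of the 10 passed either. Against 0 Gy saline Apoa1 was 1.65-fold higher (0.72 ± 0.17, limma adjusted p = 0.0934), which was the smallest adjusted p of any of the 10 genes in any comparison.

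Apoc3 encodes apolipoprotein C-III, which slows the clearance of triglyceride-rich particles. Its normalised level was 6.04 and 6.57 with 0 Gy saline, 6.71 and 6.04 with 8 Gy saline, 6.36 and 6.87 with FGF1, and 7.35 and 7.18 with FGF1/CPP-C. The 3 other groups overlapped one another, and the FGF1/CPP-C arrays lay above all of them. Among the probes used in the fit Apoc3 had the widest range over the 8 arrays, 1.31 log2 units or 2.48-fold. With FGF1/CPP-C it was 1.85-fold higher than with 8 Gy saline (0.89 ± 0.30, limma adjusted p = 0.406) and 1.57-fold higher than with FGF1 (0.65 ± 0.30, limma adjusted p = 0.615). The dimmer Apoc3 probe had levels of -0.48 and -0.68 with FGF1/CPP-C and of -1.70 to -1.03 in the other 6 arrays, and its difference from 8 Gy saline was of like size (0.78 ± 0.22, limma adjusted p = 0.382).

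Apoa4 encodes apolipoprotein A-IV, a chylomicron apolipoprotein made chiefly by the intestine after a fat meal. Its normalised level was 6.55 and 6.90 with 0 Gy saline, 7.05 and 6.59 with 8 Gy saline, 6.81 and 7.18 with FGF1, and 7.43 and 7.30 with FGF1/CPP-C. The FGF1/CPP-C arrays again stood above the other 6, and the 3 other groups overlapped. With FGF1/CPP-C it was 1.46-fold higher than with 8 Gy saline (0.55 ± 0.22, limma adjusted p = 0.435) and 1.29-fold higher than with FGF1 (0.37 ± 0.22, limma adjusted p = 0.711).

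Apob encodes the structural protein that stays with a chylomicron throughout its life. Its brighter probe had normalised levels of 5.10 and 5.46 with 0 Gy saline, 5.22 and 4.90 with 8 Gy saline, 5.17 and 5.34 with FGF1, and 5.42 and 5.28 with FGF1/CPP-C. These groups overlapped, except that FGF1/CPP-C lay above 8 Gy saline. The difference between those was 0.29 ± 0.17 (limma adjusted p = 0.529). The dimmer probe read 4.85 and 4.81, 5.09 and 4.35, 4.93 and 4.91, and 5.82 and 5.26 in the same order of groups. On this probe both FGF1/CPP-C arrays lay above the other 6, and the difference from 8 Gy saline was 0.83 ± 0.28 (limma adjusted p = 0.402), a larger value than on the brighter probe.

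Mttp encodes the large subunit of microsomal triglyceride transfer protein. Its normalised level was 5.02 and 5.27 with 0 Gy saline, 5.34 and 5.00 with 8 Gy saline, 5.07 and 5.36 with FGF1, and 5.43 and 5.46 with FGF1/CPP-C. The FGF1/CPP-C arrays were close to each other (SD 0.02, n = 2) and above the other 6, which overlapped. The difference from 8 Gy saline was 0.28 ± 0.17 and from FGF1 0.23 ± 0.17 (limma adjusted p = 0.534 and 0.773). Apoa1, Apoc3, Apoa4 and Mttp shared 1 order of group means, rising from 0 Gy saline through 8 Gy saline and FGF1 to FGF1/CPP-C, and in that order only the last step separated the arrays of neighbouring groups.

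Cd36 encodes a fatty acid receptor of the brush border. Its normalised level was 0.44 and 1.03 with 0 Gy saline, 1.22 and 0.15 with 8 Gy saline, 0.36 and 1.07 with FGF1, and 1.41 and 1.38 with FGF1/CPP-C. The FGF1/CPP-C arrays lay above the other 6, which spread widely within each group, with SDs of 0.41 to 0.76 beside 0.02 for FGF1/CPP-C (n = 2 each). Its difference from 8 Gy saline was 0.71 ± 0.42 (1.64-fold, limma adjusted p = 0.516), with the widest SE among the 10 genes.

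Fabp1 and Fabp2 encode the liver-type and the intestinal fatty acid binding protein, both abundant in enterocytes. Fabp1 had normalised levels of 8.13 and 8.29 with 0 Gy saline, 8.38 and 7.89 with 8 Gy saline, 7.97 and 8.03 with FGF1, and 8.29 and 8.20 with FGF1/CPP-C. Fabp2 had 8.29 and 8.41, 8.21 and 7.94, 8.04 and 8.04, and 8.27 and 8.20 in the same order of groups. Both genes were lower in each FGF1 array than in each 0 Gy saline array, with differences of -0.21 ± 0.17 for Fabp1 and -0.31 ± 0.12 for Fabp2 (limma adjusted p = 0.611 and 0.298). The Fabp2 signal was saturated on 3 of 8 arrays (0 Gy saline array 2, 8 Gy saline array 1 and FGF1/CPP-C array 2), and Fabp1, with signals of 505997 to 645955 units, came near the saturation value of 649809 to 655401 units. A saturated level is a lower bound, so whether the 8 Gy saline or FGF1/CPP-C arrays of Fabp2 lay below the 0 Gy arrays is not settled, and neither FGF1 array was saturated.

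Dgat1 and Mogat2 encode enzymes that rebuild triglyceride, Mogat2 by adding a fatty acid to monoacylglycerol and Dgat1 by the last acylation. Dgat1 had normalised levels of 4.38 and 4.54 with 0 Gy saline, 4.64 and 4.09 with 8 Gy saline, 4.37 and 4.61 with FGF1, and 4.82 and 4.82 with FGF1/CPP-C. Mogat2 had 6.45 and 6.67, 6.72 and 6.19, 6.48 and 6.53, and 6.71 and 6.62 in the same order. Dgat1 was above the other 6 arrays in both FGF1/CPP-C arrays (0.46 ± 0.20 against 8 Gy saline, limma adjusted p = 0.448), whereas for Mogat2 the highest array was 8 Gy saline array 1 and the groups overlapped, except that FGF1/CPP-C lay above FGF1 (0.21 ± 0.19 against 8 Gy saline, limma adjusted p = 0.663).

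Carbon ions alone were tested by setting irradiated against unirradiated saline. The 10 genes showed no common direction, with 4 positive differences (42.9% of all genes) and 6 negative, from -0.27 for Fabp2, whose probe was saturated on 1 array of each group, to 0.18 for Apoa1. Their median was -0.06, beside -0.04 over all genes. No gene had an unadjusted p under 0.05, which 11.7% of all genes had. The measured levels of Fabp2 did not overlap, lower after irradiation (-0.27 ± 0.12, limma adjusted p = 0.469; 20.8% of all genes), which the saturation leaves unsettled, and no gene was apart and higher (16.3% of all genes). The slides disagreed. On slide 1 the irradiated array was higher for 9 of 10 genes (median 0.29), and on slide 2 it was lower for all 10 (median -0.46). The array with more acinar and antrum transcripts was the unirradiated one on slide 1 and the irradiated one on slide 2. The part of these transcripts in the result was not tested. In bulk tissue, moreover, fewer enterocytes and less of a transcript per enterocyte cannot be told apart. Of 12 crypt proliferation genes 2 passed here, the mitotic cyclin genes Ccnb1 (-1.12 ± 0.12) and Ccnb2 (-1.57 ± 0.20) lower after irradiation (limma adjusted p = 0.0356 and 0.0485), calls lost in 13 and 14 of 20 alternatives.

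FGF1 pretreatment was tested within irradiated tissue. Set against 8 Gy saline, the differences were positive for 8 of 10 genes (46.8% of all genes) and small, with a median of 0.09 beside -0.01 over all genes. No gene had an unadjusted p under 0.05, which 1.64% of all genes had, and for none were the groups apart (7.43% of all genes higher, 10.6% lower). The slides disagreed again. All 10 genes were lower with FGF1 on slide 1 (median -0.25) and all 10 were higher on slide 2 (median 0.48). The summed antrum level was higher in the FGF1 array on slide 1 (10.02 beside 8.83) and in the 8 Gy saline array on slide 2 (10.25 beside 8.80), and its part was not tested. Without 8 Gy saline array 2 the median was -0.14, with 2 of 10 genes positive, and without 8 Gy saline array 1 it was 0.37, with 10 of 10 positive.

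The chimera was tested in the same way, FGF1/CPP-C against saline, both at 8 Gy. All 10 genes had a positive difference, from 0.11 for Fabp1 to 0.89 for Apoc3, as did 52.6% of all genes, and their median was 0.37 beside 0.01 over all genes. For 7 of 10 the FGF1/CPP-C arrays lay above both 8 Gy saline arrays, which was so for 20.3% of all genes, and for none did they lie below (22.1%). The exceptions were Fabp1, Fabp2 and Mogat2. Apoa1, Apoc3 and Apoa4 had an unadjusted p under 0.05 in the same direction, as did 5.85% of all genes (11.4% in either direction), and the adjusted p of the 10 genes ran from 0.387 to 0.817. The difference was positive on slide 1 for 8 genes (median 0.19) and on slide 2 for 10 (median 0.54). It leaned on 8 Gy saline array 2, without which the median was 0.15 and 8 of 10 genes were positive.

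The chimera was then set against the growth factor itself, both with 8 Gy. The difference was positive for all 10 genes (53.7% of all genes), from 0.09 for Apob to 0.68 for Cd36, and the median was 0.26 beside 0.02 over all genes. The arrays of the groups were apart for 9 of 10 genes, the exception being the brighter Apob probe, against 24.8% of all genes with FGF1/CPP-C higher and 21% lower. No gene had an unadjusted p under 0.05, which 8.76% of all genes had, and the smallest adjusted p was 0.615. On slide 1 all 10 genes were higher with FGF1/CPP-C (median 0.41) and on slide 2 all but Apob were (median 0.14).

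**Figure D2:**
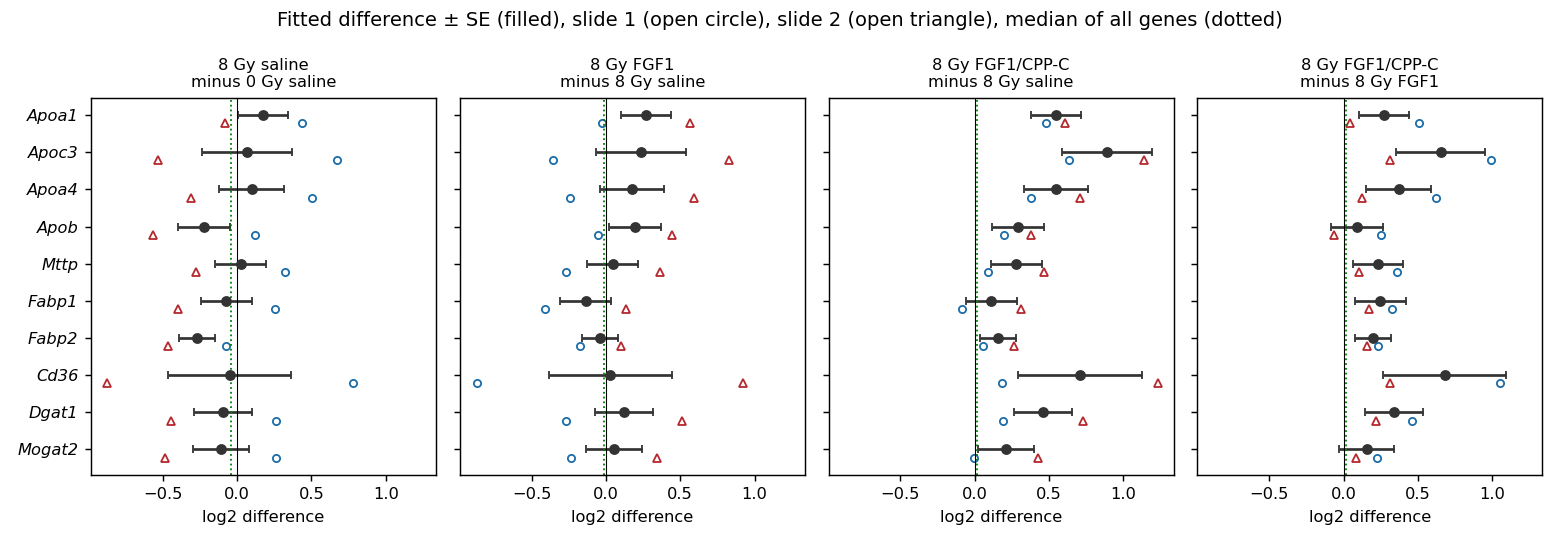
Log2 difference of each of the 10 genes in 4 comparisons; filled points are the limma fit with bars of 1 SE, open circles the difference on slide 1, open triangles that on slide 2, and dotted lines the median of all genes. The slides lie on opposite sides of 0 for 9 of 10 genes in 8 Gy saline against 0 Gy saline and for all 10 in FGF1 against 8 Gy saline, whereas all 10 fitted points lie above 0 in both comparisons of FGF1/CPP-C.

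The remaining comparisons set the pretreated, irradiated groups against 0 Gy saline. With FGF1 the genes divided evenly, 5 positive (41.3% of all genes) and 5 negative, with a median of 0.00 beside -0.06 over all genes. Arrays were apart for Apoa1, higher with FGF1 (22.4% of all genes), and for Fabp1 and Fabp2, lower (29.6%). Apoa1 was higher (0.45 ± 0.17) and Fabp2 lower, each with an unadjusted p under 0.05 (16.1% of all genes), and neither passed (limma adjusted p = 0.275 and 0.298). With FGF1/CPP-C 9 of 10 were positive (46% of all genes), the exception being Fabp2 (-0.11 ± 0.12), and the median was 0.33 beside -0.03 over all genes. For 6 genes the FGF1/CPP-C arrays lay above both 0 Gy arrays (28.8% of all genes), the measured Fabp2 levels lay below (31.9%) with 1 array of each group saturated, and Apoa1, Apoc3 and Apoa4 had an unadjusted p under 0.05 with FGF1/CPP-C higher (10% of all genes, 21.7% in either direction). Apoc3 was 1.94-fold and Apoa4 1.56-fold higher (limma adjusted p = 0.155 and 0.174). These comparisons share the 0 Gy arrays with the test of irradiation alone, and those of FGF1/CPP-C share its arrays with each other.

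The genes varied together across arrays to unequal degrees. Over the 8 arrays, which hold all 4 groups, Pearson's r was 0.99 between Apoa4 and Apoc3, 0.96 between Apoa1 and Apoa4, 0.98 between Mttp and Cd36, and 0.89 between Fabp1 and Mogat2. Fabp2, partly saturated, had r of 0.22 to Apoa4, 0.29 to Apoc3, -0.00 to Apoa1 and 0.65 to Apob. The mean of the 10 genes, each centred on its own mean, was 0.33 and 0.23 in the FGF1/CPP-C arrays, where 10 of 10 genes lay above their mean. It was lowest in 8 Gy saline array 2 (-0.39), 0 Gy saline array 1 (-0.24) and FGF1 array 1 (-0.18), where 0, 1 and 0 genes did. It was 0.05 to 0.11 in the remaining 3 arrays. Among 19797 other genes, the 5 most like this mean profile were Entpd8, an ectonucleotidase (r = 0.99), AU040320, Lrpprc, Cacul1 and Vil1, which encodes villin of the microvillus and is also in the enterocyte list below. The 5 most like Apoc3 were Tom1l2, Ube2j2, Dync1h1, Paxbp1 and AK158451, all with r of 0.99.

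Promoter windows are shown for Apoa1 and Apoa4, which lie in 1 gene cluster and varied alike (r = 0.96), and for Fabp1, which held the most motif matches. Each is the 250 bases before the transcription start in RefSeq's GRCm38.p6, read in the gene's direction, and capitals mark matches to the motifs searched. Apoa1 and Apoa4 have none, so no capitals.
Apoa1, plus strand, chr9:46228380-46228629: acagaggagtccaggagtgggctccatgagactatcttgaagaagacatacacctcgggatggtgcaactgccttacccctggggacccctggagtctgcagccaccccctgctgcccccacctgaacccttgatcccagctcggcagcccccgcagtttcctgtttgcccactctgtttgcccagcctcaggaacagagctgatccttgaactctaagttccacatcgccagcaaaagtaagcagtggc
Apoa4, plus strand, chr9:46240594-46240843: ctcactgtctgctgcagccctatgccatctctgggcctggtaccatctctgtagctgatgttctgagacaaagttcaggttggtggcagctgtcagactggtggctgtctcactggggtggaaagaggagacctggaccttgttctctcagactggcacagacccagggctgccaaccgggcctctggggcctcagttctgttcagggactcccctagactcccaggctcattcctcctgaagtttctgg
Fabp1, plus strand, chr6:71199629-71199878: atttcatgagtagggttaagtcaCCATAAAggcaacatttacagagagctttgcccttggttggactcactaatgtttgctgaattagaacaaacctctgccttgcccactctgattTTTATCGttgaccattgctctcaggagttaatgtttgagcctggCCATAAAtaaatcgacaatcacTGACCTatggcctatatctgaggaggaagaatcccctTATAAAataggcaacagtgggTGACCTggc
Windows were found for 7 of the 10 genes. On both strands 5 motifs were searched: the HNF4 motif CAAAGTCCA, the nuclear receptor motif AGGTCA, the GATA motif AGATAA, the CDX2 motif TTTATNG and the TATA box TATAAA. Fabp1 held 6 matches, 3 to the CDX2 motif, 2 to the nuclear receptor motif and a TATA box 30 to 25 bases before the start. Matches also stood in Apob (a TATA box, which overlapped a CDX2 match), Fabp2 (CDX2) and Cd36 (nuclear receptor motif). Of 32851 windows of this length, 0.384% held the HNF4 motif, 14% the nuclear receptor motif, 9.99% the GATA motif, 9.81% the CDX2 motif and 12.4% the TATA box. A match describes these letters only.

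Other genes of the pathway were taken from lists of lipid uptake, triglyceride synthesis, lipid droplets, chylomicron assembly, transcription factors and fatty acid oxidation. Against 0 Gy saline, 1 of 14 uptake genes was higher with FGF1/CPP-C, Abcg5 (0.95 ± 0.14, limma adjusted p = 0.0391), which returns sterols to the lumen. Of 13 synthesis genes 1 was lower, Mogat1, the other monoacylglycerol acyltransferase (-1.67 ± 0.18, limma adjusted p = 0.0238). In the same comparison 10 of the 13 had a positive difference (46% of all genes), with a median of 0.22 beside -0.03 over all genes. For Dgat2 of this list, 1 outlier-marked array of 0 Gy saline was left out. Mogat1 had normalised levels of 0.22 and -0.07 with FGF1/CPP-C and of 1.39 to 1.87 in the other 6 arrays, whereas for Mogat2 the FGF1/CPP-C and 0 Gy saline arrays overlapped. Among 17 oxidation targets of PPAR alpha, Pdk4, an inhibitor of pyruvate use (-1.44 ± 0.20), and Cyp4a10, a fatty acid hydroxylase (-1.19 ± 0.18), were lower (limma adjusted p = 0.0362 and 0.0412). The 17 had no common direction there. A positive difference was found for 9 of them (46% of all genes), and their median was 0.01 beside -0.03 over all genes. Pdk4 was also lower with FGF1 than with 0 Gy saline (-1.74 ± 0.20, limma adjusted p = 0.0312). With 8 Gy and saline alone it was lower than with 0 Gy saline as well, without passing (-1.14 ± 0.20, limma adjusted p = 0.122). These calls of Abcg5, Mogat1, Pdk4 and Cyp4a10 were each lost in 9 to 13 of 20 alternatives, with no change of direction.

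No gene of the lists of lipid droplets, chylomicron assembly and transcription factors passed in any of the 6 comparisons. Against 8 Gy saline, FGF1/CPP-C gave a positive difference for 7 of 10 droplet genes (median 0.18), 12 of 18 assembly genes (median 0.13) and 14 of 17 transcription factors (median 0.32), beside a median of 0.01 over all genes. Of all genes 52.6% were positive. An unadjusted p under 0.05 was had by 3, 1 and 5 of them, and by 11.4% of all genes. Those with the smallest p in the F test were Plin3, a droplet coat protein (0.56 ± 0.19, with 1 outlier-marked array of 8 Gy saline left out), Lipe, hormone-sensitive lipase (0.48 ± 0.19), Creb3l3, an activator of apolipoprotein genes (0.30 ± 0.14), Apoc1 (-1.97 ± 0.68), Isx, an intestinal homeobox factor (0.63 ± 0.19), and Srebf1, a lipogenic regulator (0.59 ± 0.15). Their limma adjusted p ran from 0.361 to 0.460 in that comparison. The value for Apoc1 went the other way from Apoa1, Apoc3 and Apoa4. Among the assembly genes, Apobec1 and P4hb were also read with 1 outlier-marked array of 8 Gy saline left out.

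Markers of absorptive enterocytes, none of them among the 10 genes, moved with the results above. FGF1/CPP-C against 8 Gy saline gave a positive difference for 17 of 18 (median 0.33, none passing, 4 with an unadjusted p under 0.05). Among the 18, Sis was read with 1 outlier-marked array of 8 Gy saline left out. Against FGF1 the difference was positive for 14 of 18 (median 0.23, none passing, 3 unadjusted). Of all genes 52.6% and 53.7% were positive, and 11.4% and 8.76% had an unadjusted p under 0.05. Lct, lactase, and Slc5a1, the sodium-glucose cotransporter, had 0.92 ± 0.26 and 0.31 ± 0.25 against 8 Gy saline (limma adjusted p = 0.368 and 0.617). The mean of the 17 markers measured on all arrays, centred, was -0.29 and -0.08 with 0 Gy saline, 0.22 and -0.45 with 8 Gy saline, -0.12 and 0.13 with FGF1, and 0.32 and 0.27 with FGF1/CPP-C. Both it and the mean of the fat absorption genes were highest in the FGF1/CPP-C arrays and lowest in 8 Gy saline array 2.

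**Figure D3:**
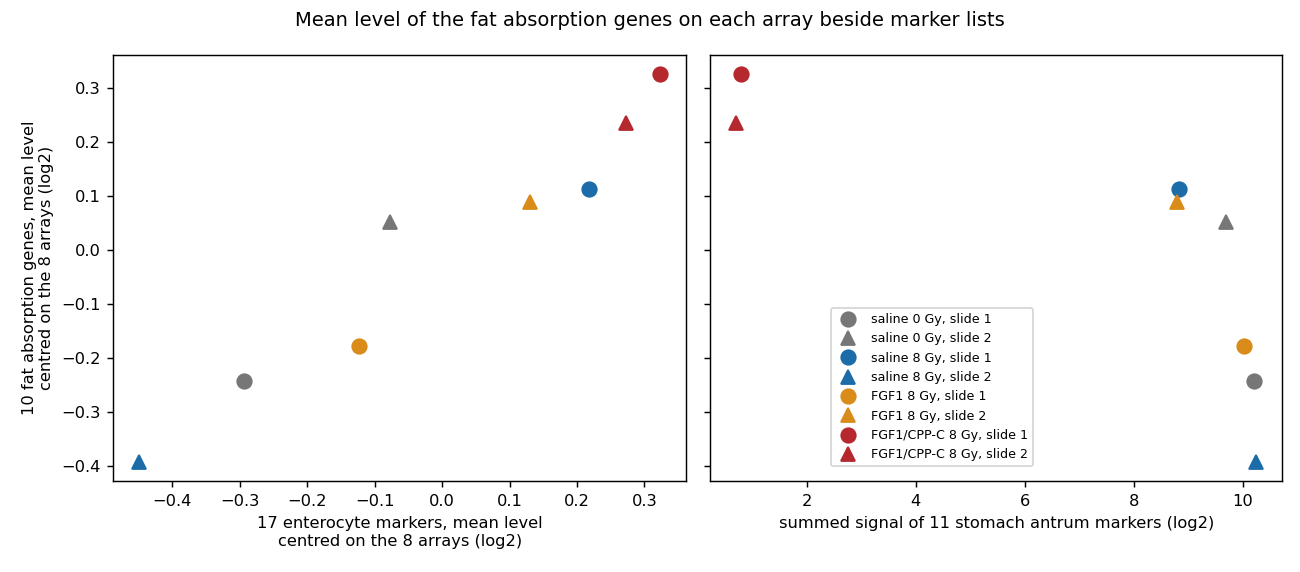
Mean centred level (log2) of the 10 fat absorption genes on each of 8 arrays against the mean centred level of 17 enterocyte markers (left) and the log2 summed signal of 11 stomach antrum markers (right); colours are groups, circles slide 1 and triangles slide 2. The FGF1/CPP-C arrays lie highest on both axes at left (0.33 and 0.23 against 0.32 and 0.27) and apart at the low end of the antrum axis at right (0.79 and 0.70). Of the markers summed at right, Tff2 and Gkn3 were high in every other array. Gkn2 was high only in 0 Gy saline array 1, 8 Gy saline array 2 and FGF1 array 1.

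Levels were therefore also taken relative to the mean of those 17 enterocyte markers, which was decided on once the values were known. This shifts every gene of a comparison by the same amount, so the signs follow from the shift. Against 8 Gy saline the median of the 10 genes was -0.04 and that of all genes -0.40, in place of 0.37 and 0.01. Against FGF1 they were -0.03 and -0.28, in place of 0.26 and 0.02. The gap between the 10 genes and all genes cannot change under an equal shift, so the second scale says nothing further about it. The median of the 10 genes lay near the mean of the enterocyte markers. Relative to those markers, the difference from 8 Gy saline ran from -0.30 ± 0.21 for Fabp1 to 0.47 ± 0.22 for Apoc3 (limma adjusted p from 0.332 to 0.863), with 5 of 10 genes above 0.

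Markers of other tissues and segments differed as well. With FGF1/CPP-C, Tff2 and Gkn3 of the antrum list were lower than with 8 Gy saline (limma adjusted p = 7.46e-05 and 0.00332) and than with FGF1 (limma adjusted p = 7.53e-05 and 0.00329). These calls were lost in 1 of 17 and 4 of 18 alternatives against 8 Gy saline, and in 1 of 17 and 5 of 19 against FGF1. When saturated genes were left out, no gene was called in either comparison. Tff2 had normalised levels of -6.00 and -6.72, the latter the floor of the scale, against 8.18 or more in the other 6 arrays. Gkn3 had -1.64 and -1.80 against 7.22 or more. Both were thus high also in arrays where Gkn1, Gkn2, Muc5ac and Gast of the same list were low. All 6 measured duodenal markers had a negative difference against 8 Gy saline (median -0.50). Against 0 Gy saline 2 of the 6 were positive (median -0.96). The calcium handling genes Trpv6 (-2.13 ± 0.13) and S100g (-0.96 ± 0.13) were lower than with 0 Gy saline (limma adjusted p = 0.00470 and 0.0302), calls lost in 2 and 11 of 20 alternatives. With 8 Gy and saline alone both were also lower than with 0 Gy saline, without passing. Their differences there were -0.81 ± 0.13 and -0.24 ± 0.13 (limma adjusted p = 0.0889 and 0.535). With FGF1/CPP-C the 5 ileal markers had a median difference of 0.29 against 8 Gy saline, with none passing and none with an unadjusted p under 0.05. Their summed log2 level was 3.40 to 4.19 over the 8 arrays. It was carried by Slc51a (2.96 to 3.81) and Slc51b (1.35 to 2.37), while Fabp6, Slc10a2 and Fgf15 lay at -2.94 or lower on every array. The part of the stomach and of the intestinal segment in the differences of the fat absorption genes was not tested. Without the 3 arrays of the highest antrum level (0 Gy saline array 1, 8 Gy saline array 2 and FGF1 array 1) the FGF1/CPP-C difference had a median of 0.15 against 8 Gy saline, with 8 of 10 positive, and of 0.19 against FGF1, with 10 of 10 positive. That leaves 1 array in each of the other groups, with summed antrum levels of 8.80 to 9.69, above those with FGF1/CPP-C. Tff2 and Gkn3 carried these sums. Tff1, Pgc, Ctse and Sult1c2 were also higher there than with FGF1/CPP-C. In contrast, Gkn1, Gkn2, Muc5ac, Gast and Capn8 lay near the FGF1/CPP-C levels (Gkn2 -6.04 to -5.07 beside -5.66 and -6.55).

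Sources of the same transcripts outside the enterocyte were read from their markers. Of 12 hepatocyte markers 7 were measured, and Alb, Ahsg, Serpina3k, Fgb and Fgg were not well above background on both arrays of any group. Liver also makes Apoa1, Apob, Apoc3 and Fabp1. The summed log2 level of the 7 was -0.17 to 1.53 over the 8 arrays. Single genes stood out in it. Ttr was at 1.06 in 8 Gy saline array 2 and 0.50 in 0 Gy saline array 1. Serpina1c was at 0.74 in FGF1/CPP-C array 2, beside -1.39 in FGF1/CPP-C array 1. For Cd36 the lists were adipocytes, with 3 of 11 positive against 8 Gy saline (median -1.13), macrophages, with 8 of 9 (median 0.47), and endothelium, with 2 of 8 (median -0.05), none passing in that comparison, and 8, 6 and 2 with an unadjusted p under 0.05. The macrophage genes Adgre1 and C1qc had 0.75 ± 0.15 and 0.50 ± 0.11 (limma adjusted p = 0.294 and 0.296). Their summed log2 levels over the 8 arrays were 4.10 to 4.73 for adipocytes, 3.38 to 3.99 for macrophages and 2.81 to 3.26 for endothelium. The adipocyte sum was carried by Cidec, which is also a lipid droplet gene (3.62 to 4.32). The median level of the 11 adipocyte markers was -2.38 to -1.83 in the saline arrays and -4.93 to -3.72 in the FGF1 and FGF1/CPP-C arrays. Their part in the level of Cd36 was not tested. Against 0 Gy saline, the endothelial gene Emcn (-0.87 ± 0.14) and Lpl, lipoprotein lipase (-0.81 ± 0.12), were lower with FGF1/CPP-C (limma adjusted p = 0.0466 and 0.0373), calls lost in 12 and 11 of 20 alternatives, while Cd36 had 0.66 ± 0.42.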

How the data were processed

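Total RNA signal of 8 one-colour Agilent mouse arrays was read from scanner files made with Agilent Feature Extraction 9.5.3.1, per the file headers. The deposited processed signal is an intensity on a linear scale, background-subtracted and detrended by the authors' software with no scaling between arrays, per the file headers. The authors' series matrix holds the same intensity (ratio 1), with column medians, from unirradiated saline to FGF1/CPP-C, of 674, 728, 762 and 692 on slide 1 and 743, 849, 814 and 816 on slide 2. Columns of other samples numbered 0.

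From the deposited values, the log2 of the processed signal minus each array's 75th percentile was taken, with a floor of -6.72. Spots of a probe were averaged, leaving out 1377 control spots and outlier-marked spots. Of 39429 probes 27500 were kept as well above background on both arrays of a group, and each gene was read by its brightest kept probe. Accessions named 28330 probes through RefSeq, symbols 2204, and 8895 kept the name in the files. The fit used limma 3.58.1 (R 4.3.3) on all 8 arrays, with Benjamini-Hochberg adjustment over the genes tested in a comparison and a threshold of 0.05. It was tested on simulated data. An exact permutation test of 2 arrays against 2 cannot go below p = 0.333 and was not used. The number of arrays limits the precision. Alternatives covered normalisation, background, filters, probe choice, saturation, moderation, the slide as a block and each array left out.

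The genes and gene lists were chosen with earlier results of these data known. Named from a list were genes that passed in a comparison (up to 4 by smallest p), or, where none passed, the 2 with the smallest F test p. Where the summed level of the antrum, ileal, adipocyte or hepatocyte list was read, genes that carried it or differed from it were named too. Genes of like pattern were the 5 with the highest r over 8 arrays.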

Additional observations from a re-analysis of the deposited data

How the results depend on the processing

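None of the 10 fat absorption genes passed under any alternative, the smallest limma adjusted p being 0.0529, for FGF1/CPP-C against 0 Gy saline. Of 199 values for the 10 genes in each comparison, those that changed sign numbered 21 for 8 Gy against 0 Gy saline, 19 (FGF1) and 9 (FGF1/CPP-C) against 8 Gy saline, 6 for FGF1/CPP-C against FGF1, and 16 and 15 for FGF1 and FGF1/CPP-C against 0 Gy saline. Of these, 2, 3, 5, 6, 2 and 5 came from scaling to enterocyte markers, which shifts all genes alike. Many of the 199 values could not change sign. The filters, the moderation, the slide as a block and a fit to the 2 groups alone kept the fitted differences as they were. So did leaving out an array of a group outside the comparison. Counts of all genes called depended on the setting, and the cause was not tested. In the order of comparisons just given, with the F test last, they were 105, 0, 2, 2, 186, 380 and 91 as reported. They were 123, 0, 7, 14, 225, 478 and 123 with quantile normalisation, 126, 0, 5, 10, 304, 515 and 167 with normexp, and 63, 0, 0, 0, 164, 393 and 13 with series matrix values. They were 55, 0, 3, 2, 135, 215 and 33 with all probes kept, 109, 0, 1, 1, 184, 418 and 90 with probes well above background on all arrays, and 108, 2, 7, 10, 195, 380 and 98 with the mean of kept probes. They were 105, 0, 0, 0, 186, 375 and 65 without saturated genes, 146, 0, 2, 8, 352, 643 and 202 with trend and robust moderation, and 121, 0, 7, 11, 234, 481 and 109 with each probe fitted alone. A fit to the 2 groups alone gave 0, 0, 2, 1, 2 and 10. Scaling to enterocyte markers, chosen after seeing the data, gave 2, 0, 16, 10, 11, 78 and 30, and leaving out the 3 arrays of the highest antrum level gave 0 throughout. Leaving out each array in turn gave 8 to 137, 0 to 59, 1 to 96, 1 to 52, 30 to 103, 23 to 704 and 4 to 159, a lone array being assumed to vary like the others.

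With the replicate block, which is also the slide, the counts were 62, 0, 2, 2, 73, 172 and 28. Same-numbered arrays share a slide, and their deviations from the group means had correlations of -0.52 to 0.54. Markers of other tissues also differed between the arrays of a group, so these correlations cannot settle whether the numbers pair the arrays in any other way.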
